A study of Mus musculus with 8 samples.

Results

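The 10 genes described here are Atf4, Atf6, Xbp1, Ern1, Ddit3, Trib3, Chac1, Asns, Herpud1 and Sesn2, a set of endoplasmic reticulum (ER) stress and integrated stress response genes that were picked out of the count tables by symbol. Of the 18957 genes counted in the series, 9 of these 10 were analysed, and all 9 passed the filter on low counts. Chac1, which encodes a glutathione-degrading enzyme, was not analysed here. RNA came from cardiac fibroblasts that were sorted from enzymatically dissociated ventricles as living cells with the surface receptor PDGFRA and without blood lineage markers. There were 4 WT and 4 Pdgfra-Cre:LmnaF/F libraries, from C57BL/6 (mixed) mice of 3 to 4 weeks. WT littermates carried wild-type alleles only. The Pdgfra-Cre:LmnaF/F mice carried exon 2 of Lmna flanked by loxP sites on both alleles and a BAC transgene that expresses Cre under Pdgfra control, which also recombines in a subset of cardiac myocytes. No library of mice with Cre alone was used here, so the effect of the transgene and that of the Lmna deletion cannot be told apart.

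When unfolded proteins accumulate in the ER, the membrane sensors IRE1 (encoded by Ern1), ATF6 and PERK (Eif2ak3) start the unfolded protein response. IRE1 splices Xbp1 mRNA, ATF6 is cut to release a transcription factor, and PERK phosphorylates the initiation factor eIF2alpha, as do the other kinases of the integrated stress response, which lowers general translation and favours that of ATF4. ATF4 and its partner CHOP (Ddit3) bind amino acid response elements in genes of amino acid supply, signalling and cell death, and fibroblasts, which secrete large amounts of collagen, rely on the ER folding machinery that this response maintains.

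The promoters of Herpud1, Asns and Trib3 are shown because they hold letters that these factors are known to bind. A window of 250 bases before to 50 after the transcription start was available for 9 of the 10 genes from RefSeq (GRCm38.p6), Atf6 being the other one, and is printed 5′ to 3′ on the strand of the gene as far as 30 bases after the start. Capitals mark a match on either strand to the CCAAT/enhancer-binding protein and ATF response element (CARE, TGATGNAA) or to its variant TGACGCAA. They also mark a match to the ER stress response element II (ERSE-II, ATTGG and CCACG separated by 1 base).

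Herpud1 promoter, chr8:94386179-94386458, plus strand: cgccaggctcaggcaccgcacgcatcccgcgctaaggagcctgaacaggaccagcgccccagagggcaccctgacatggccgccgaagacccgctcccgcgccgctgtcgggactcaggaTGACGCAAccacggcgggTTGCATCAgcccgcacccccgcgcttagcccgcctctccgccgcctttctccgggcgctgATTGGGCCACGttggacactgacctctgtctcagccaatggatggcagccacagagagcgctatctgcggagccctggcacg

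Asns promoter, chr6:7693180-7693459, minus strand: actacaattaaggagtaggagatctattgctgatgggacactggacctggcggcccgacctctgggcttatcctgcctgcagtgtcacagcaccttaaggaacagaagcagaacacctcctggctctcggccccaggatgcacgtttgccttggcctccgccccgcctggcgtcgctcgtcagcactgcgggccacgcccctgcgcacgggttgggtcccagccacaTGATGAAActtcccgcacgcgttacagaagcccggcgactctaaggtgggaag

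Trib3 promoter, chr2:152344031-152344310, minus strand: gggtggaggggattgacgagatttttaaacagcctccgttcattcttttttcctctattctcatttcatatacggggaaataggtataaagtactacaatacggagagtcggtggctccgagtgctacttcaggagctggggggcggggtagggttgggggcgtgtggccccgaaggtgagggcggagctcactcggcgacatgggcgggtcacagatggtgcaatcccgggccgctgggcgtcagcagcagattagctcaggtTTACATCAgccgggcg

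Herpud1 held 3 matches. The variant TGACGCAA begins 130 bases before the start, a CARE on the other strand lies at 112 bases and an ERSE-II at 52 bases before it. Asns held 1 CARE, at 23 bases before the start, and Trib3 held 1, on the other strand at 14 bases after it. Among 32851 mouse promoters of the same length, a CARE occurred in 3.97%, the variant TGACGCAA in 0.49% and ERSE-II in 0.0365%. The unfolded protein response element TGACGTGG (0.676% of promoters) and the ER stress response element (CCAAT and CCACG separated by 9 bases, 0.119%) had no match in the windows of the genes analysed. The windows of Atf4, Xbp1, Ern1, Ddit3 and Sesn2 held no match to any of these letters. A match is a description of the sequence and not a measured binding site.

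Levels are given as CPM, read counts scaled to the library size with TMM factors, and levels of different genes are compared as CPM per kilobase of exon. On that scale Atf4, Xbp1 and Herpud1 stood well above the other genes of the set in WT fibroblasts. Atf4 was the highest at 187 ± 20.4 (SD, n = 4), followed by Xbp1 at 148 ± 34.4 and Herpud1 at 123 ± 26.4, and each stood at or above the 98th percentile of 13006 ranked genes. The WT ranges of Atf4 (168 to 212), Xbp1 (103 to 178) and Herpud1 (97.3 to 156) overlapped between neighbours. Ddit3 (12 ± 4.32), Atf6 (11.9 ± 1.86) and Ern1 (7.52 ± 0.831) lay at the 72nd, 71.9th and 58.5th percentiles, and the ranges of Ddit3 and Atf6 overlapped whereas that of Ern1 (6.57 to 8.46) overlapped the range of Ddit3 and not that of Atf6. Asns (5.15 ± 2.88), Sesn2 (3.74 ± 1.11) and Trib3 (2.51 ± 1.05) were the lowest, with ranges that overlapped each other and, for Asns, that of Ern1, and Trib3 stood at the 29.5th percentile. In Pdgfra-Cre:LmnaF/F fibroblasts the same 3 genes were the most abundant, Atf4 at 212 ± 34.7, Xbp1 at 134 ± 31.4 and Herpud1 at 124 ± 12.5.

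The targeted gene checked the labels. Lmna was at 331, 274, 483 and 374 CPM in WT replicates 1 to 4 and at 126, 97.4, 130 and 90.4 CPM in Pdgfra-Cre:LmnaF/F replicates 1 to 4, a log2 fold change of −1.72 (SE 0.22, adjusted p = 0.00492, quasi-likelihood test of edgeR). Total counts lay between 2080555 and 12502949 per library, with WT replicate 2 the shallowest. Fibroblast markers were high in every library, with a summed level of 43550 to 59670 CPM. Summed markers of cardiac myocytes were 5681 CPM in Pdgfra-Cre:LmnaF/F replicate 4, against 296.3 to 886 in the other 3 and 733.5 to 1020 in WT. All 7 myocyte markers were highest in that library, and none was at 0 in any library. Summed leukocyte markers were also highest there, at 429.3 CPM, against 44.69 to 92.81 in the other 3 and 41.31 to 183.6 in WT. Ptprc, the pan-leukocyte marker, was at 12.9 CPM in that library and at 3.02 to 7.99 CPM in WT. Lyz2 gave 282 CPM of the leukocyte sum there, and Cd68, Adgre1, C1qa and C1qb were also highest in that library. The leukocyte markers Cd79a (1.5 CPM) and Cd3e (0 CPM) were not. Y-linked expression was near 0 in WT replicate 3 and in Pdgfra-Cre:LmnaF/F replicates 1 to 3, so that the libraries were not balanced for sex. In bulk RNA, fewer cells of a type and less RNA per cell cannot be told apart.

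For none of the 9 genes did a difference between the genotypes pass the test. At an adjusted p under 0.05, edgeR called 0 of the 9, against 53 of 13036 tested genes (0.407%, with 0.169% higher and 0.238% lower in Pdgfra-Cre:LmnaF/F), DESeq2 called 0 (2.26% of all tested) and limma-voom with quality weights called 0 (0.967%). An unadjusted edgeR p under 0.05 was reached by 0 of the 9, against 11.9% of all tested genes, and the groups did not overlap for 0 of the 9, against 8.03%. The log2 fold change was above 0 for 5 genes and below 0 for 4, with a median of 0.02, the same as the median of all tested genes. The intervals limit how large a difference could have been missed. For Atf4, Atf6, Xbp1, Ern1 and Herpud1, every bound lay within 0.67 log2 units of 0, whereas the intervals of Ddit3, Trib3, Asns and Sesn2 reached beyond 1 log2 unit on at least 1 side.

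**Figure D1:**
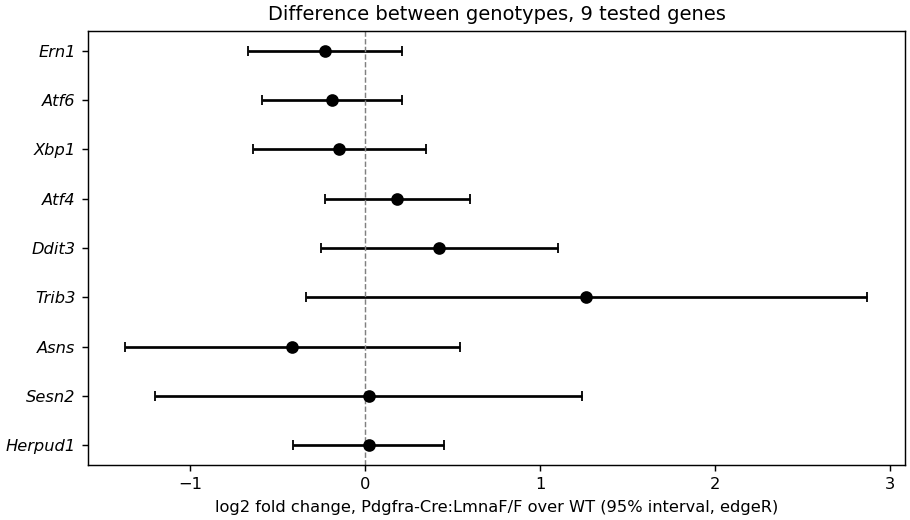
Log2 fold change of Pdgfra-Cre:LmnaF/F over WT (x axis) for the 9 tested genes, with the 95% interval of the edgeR fit from 4 libraries per genotype. Every interval includes 0, the narrowest are those of the sensors and of the abundant genes, and that of Trib3 runs from −0.34 to 2.87.

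Of the ER membrane sensors, Ern1 and Atf6 overlapped between the genotypes and did not pass the test. Ern1 (chr11:106394650-106487852, minus strand, mm10 gene coordinates of GENCODE M21 here and for the genes that follow), the kinase and RNase that splices Xbp1, was at 53.7, 58.4, 69.2 and 64.5 CPM in WT replicates 1 to 4 and at 59.1, 45.7, 50.1 and 54.6 CPM in Pdgfra-Cre:LmnaF/F replicates 1 to 4. The lowest WT value lay below the highest 2 of the other genotype, and the log2 fold change was −0.23 (95% interval −0.67 to 0.21, adjusted p = 0.741, edgeR). Atf6 (chr1:170704674-170867771, minus strand), the sensor that is cut in the Golgi, was at 108, 89.6, 131 and 112 CPM in WT and at 102, 102, 93.2 and 88.9 CPM in Pdgfra-Cre:LmnaF/F. Only WT replicate 2, the shallowest library, kept the groups of Atf6 from separating, and the log2 fold change was −0.19 (95% interval −0.59 to 0.21, adjusted p = 0.771, edgeR). Without WT replicate 2 the Atf6 groups no longer overlapped, which follows from the choice of the library left out. The share of all tested genes without overlap in that comparison was not counted, and no gene of the set passed the test.

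No transcription factor of the set passed the test. Atf4 (chr15:80255184-80257541, plus strand), the central factor of the integrated stress response, was at 460, 410, 501 and 395 CPM in WT and at 458, 524, 604 and 416 CPM in Pdgfra-Cre:LmnaF/F. The means were 441 ± 48.2 and 501 ± 82 CPM (SD, n = 4 each) and the ranges overlapped, with a log2 fold change of 0.18 (95% interval −0.23 to 0.6, adjusted p = 0.799, edgeR). Since ATF4 is controlled in large part by translation, these values describe its mRNA and not its protein. Xbp1 (chr11:5520659-5525893, plus strand), the target of IRE1, was at 578, 560, 335 and 456 CPM in WT and at 542, 502, 361 and 335 CPM in Pdgfra-Cre:LmnaF/F, with a log2 fold change of −0.15 (95% interval −0.64 to 0.35, adjusted p = 0.874, edgeR). High and low libraries occurred in both genotypes. Counts per gene do not separate the spliced from the unspliced form of Xbp1, so the activity of IRE1 was not measured.

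Ddit3, which encodes the pro-apoptotic factor CHOP, was at 22.2, 18.6, 29.6 and 11.8 CPM in WT and at 29.5, 29, 27.7 and 24.2 CPM in Pdgfra-Cre:LmnaF/F. The 4 Pdgfra-Cre:LmnaF/F libraries were close together and above 3 of the 4 WT libraries, while WT replicate 3 was as high as any of them. The log2 fold change was 0.42 (95% interval −0.25 to 1.1, adjusted p = 0.668, edgeR). Without WT replicate 3 the log2 fold change was 0.65, with an unadjusted p of 0.0599 and an adjusted p of 0.446 by edgeR. The groups then did not overlap, and the share of all tested genes that did so in that comparison was not counted. Without WT replicate 4, the lowest library, the log2 fold change was 0.22 (adjusted p = 0.925, edgeR), and with Y-linked expression as a covariate it was 0.25 (adjusted p = 0.776, edgeR). Limma-voom gave 0.79, with an unadjusted p of 0.0197 and an adjusted p of 0.252, the lowest adjusted p that any of the 9 genes reached in any setting tried. GENCODE M21 lists a second record named Ddit3 that overlaps the first on chromosome 10 (mm10, 127290774 to 127296288 and 127290829 to 127293753), so how reads shared by both were counted is uncertain.

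**Figure D2:**
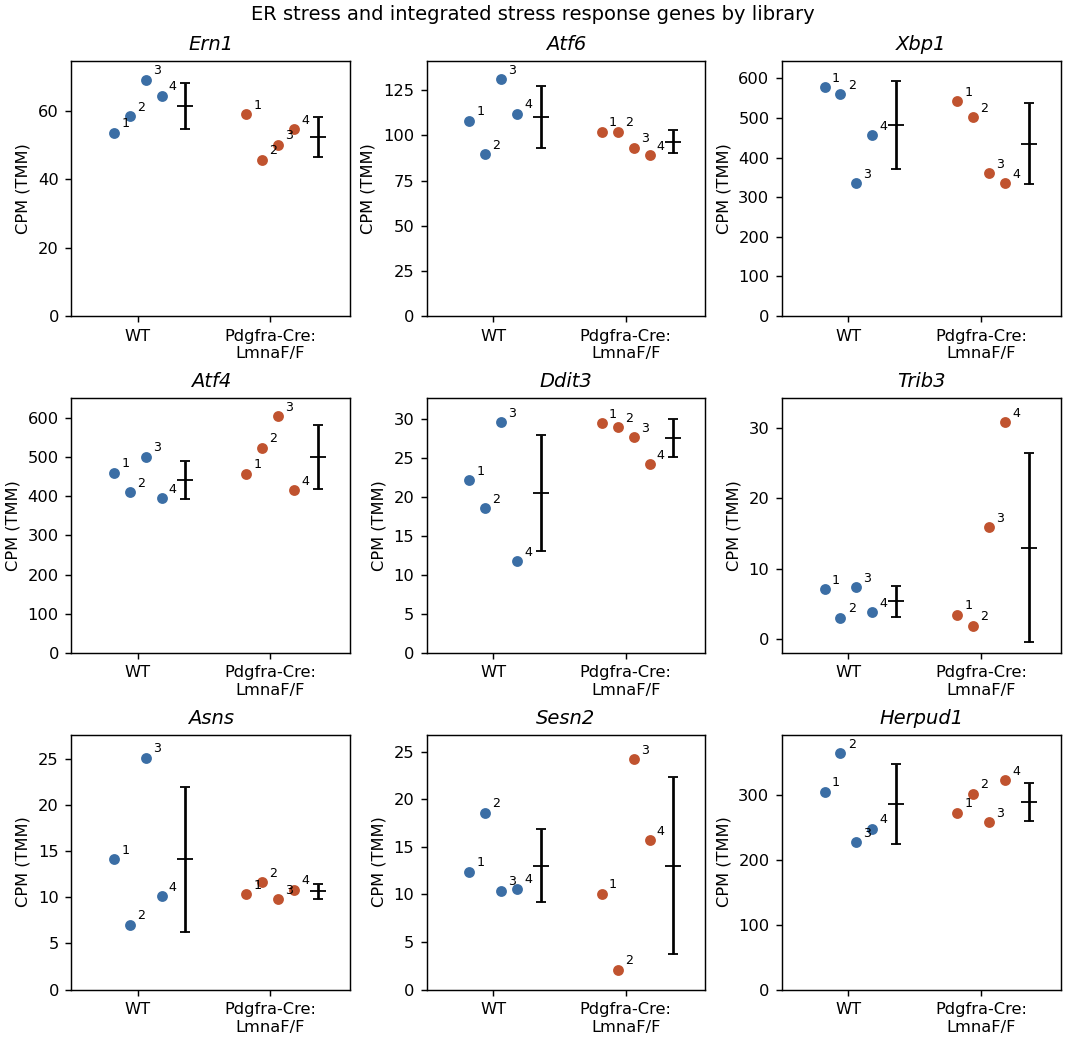
TMM-normalised CPM (y axis) of the 9 genes in each library, with WT in blue and Pdgfra-Cre:LmnaF/F in orange, the number at a point being the replicate and the bar the mean ± SD of 4 libraries. The groups overlap for every gene, and Trib3 and Sesn2 spread widely among the Pdgfra-Cre:LmnaF/F libraries whereas Ddit3 and Asns are tightly grouped there.

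Of the targets of ATF4, Trib3 and Sesn2 were uneven among the Pdgfra-Cre:LmnaF/F libraries, whereas Asns and Ddit3 were even. Trib3 (chr2:152337422-152344032, minus strand), a pseudokinase that ATF4 and CHOP induce and that restrains AKT signalling, was at 7.1, 3.02, 7.35 and 3.83 CPM in WT. In Pdgfra-Cre:LmnaF/F replicates 1 to 4 it was at 3.41, 1.88, 15.9 and 30.8 CPM, so that 2 libraries lay above every WT library and 1 below every WT library. The highest value was 16.4 times the lowest in Pdgfra-Cre:LmnaF/F, from 18 and 370 reads, and 2.43 times in WT. The log2 fold change was 1.26 (SE 0.75, 95% interval −0.34 to 2.87, adjusted p = 0.559, edgeR).

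Pdgfra-Cre:LmnaF/F replicate 4, which had the highest Trib3, was also the library with the highest myocyte and leukocyte marker sums. Its fibroblast, endothelial and mural sums were the highest as well, at 59670, 395.3 and 518.7 CPM. The part of any of these cells in its Trib3 level was not tested. Without that library the log2 fold change of Trib3 was 0.38 (adjusted p = 0.921), and without replicate 2 it was 1.62 (adjusted p = 0.373), both by edgeR. Limma-voom, which weights libraries by quality, gave 0.58. In replicate 3 Trib3 was likewise above all WT libraries, and the myocyte and leukocyte sums there, 840.2 and 90.26 CPM, lay within the range of the WT libraries.

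Sesn2 (chr4:132492032-132510501, minus strand), a sestrin that ATF4 and p53 induce and that inhibits mTORC1, was at 12.4, 18.6, 10.4 and 10.6 CPM in WT and at 10.1, 2.09, 24.2 and 15.7 CPM in Pdgfra-Cre:LmnaF/F. The means of both genotypes were 13 CPM, but the SD was 3.86 in WT and 9.31 in Pdgfra-Cre:LmnaF/F, where replicate 2 held 20 reads and replicate 3 held 210. The log2 fold change was 0.02 (95% interval −1.2 to 1.24, adjusted p = 0.994, edgeR), and its sign turned when single libraries were left out. Trib3 and Sesn2 were both lowest in Pdgfra-Cre:LmnaF/F replicate 2 of the 8 libraries, whereas the highest Trib3 was in replicate 4 and the highest Sesn2 in replicate 3. Atf4 mRNA did not follow this order, being second highest in replicate 2.

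Asns (chr6:7675169-7693254, minus strand), the asparagine synthetase that is a widely used readout of ATF4, was at 14.1, 7.04, 25.1 and 10.1 CPM in WT and at 10.3, 11.6, 9.79 and 10.8 CPM in Pdgfra-Cre:LmnaF/F. Its Pdgfra-Cre:LmnaF/F libraries were nearly equal, and all 4 lay between the lowest and the second highest WT value. The log2 fold change was −0.42 (95% interval −1.37 to 0.54, adjusted p = 0.8, edgeR), and without WT replicate 3 it was 0. Asns and Trib3, which both hold a CARE beside the start, therefore had the narrowest and the widest spread of the 9 genes among the Pdgfra-Cre:LmnaF/F libraries, with an SD of log2 CPM of 0.1 (equal to that of Atf6) and 1.81. Ranked among tested genes within 0.5 log2 units of their level, those SDs stood at the 0.655th percentile for Asns and the 96.6th for Trib3, with Sesn2 (SD 1.48) at the 95.1st and Ddit3 (SD 0.13) at the 1.97th. In WT the SDs of Asns, Ddit3, Trib3 and Sesn2 were 0.76, 0.55, 0.61 and 0.39, between the 28.8th and the 77.4th percentile. These SDs rest on 4 libraries and were not tested.

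Herpud1 (chr8:94386438-94395377, plus strand), an ER membrane protein of ER-associated degradation that all branches of the response induce, was at 305, 364, 227 and 248 CPM in WT and at 273, 302, 258 and 323 CPM in Pdgfra-Cre:LmnaF/F. The Pdgfra-Cre:LmnaF/F values all lay inside the WT range. The means were 286 ± 61.6 and 289 ± 29.2 CPM, and the log2 fold change was 0.02 (95% interval −0.41 to 0.45, adjusted p = 0.984, edgeR). Its promoter, shown above, held the most matches of the genes analysed.

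The unevenness was looked for in 2 related genes, Ddit4 and Sesn1, which were chosen after their values were seen. Not every related gene was highest in Pdgfra-Cre:LmnaF/F replicate 4, where Atf5 was at 53.7 CPM, its lowest value. Ddit4, an inhibitor of mTORC1 that stress and hypoxia induce, was at 18.5, 89.6, 1.76 and 15 CPM in WT and at 21.9, 16.7, 86.5 and 319 CPM in Pdgfra-Cre:LmnaF/F, with a log2 fold change of 1.93 (95% interval −0.07 to 3.94, adjusted p = 0.444, edgeR). Like Trib3, it was highest in Pdgfra-Cre:LmnaF/F replicate 4, but WT replicate 2 exceeded every other library except that one. Ddit4 was uneven in WT as well, where its highest value was 51 times its lowest, against 19.1 times in Pdgfra-Cre:LmnaF/F. With Y-linked expression as a covariate its adjusted p was 0.0423. Sesn1, a p53-induced sestrin, was at 56.9 to 69.9 CPM in WT, at 65, 73.2 and 63.1 CPM in Pdgfra-Cre:LmnaF/F replicates 1 to 3 and at 362 CPM in replicate 4, with a log2 fold change of 1.12 (unadjusted p = 0.0314, adjusted p = 0.365, edgeR). Without WT replicate 2 and Pdgfra-Cre:LmnaF/F replicate 4, which were left out together after the data were seen, it was −0.01.

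**Figure D3:**
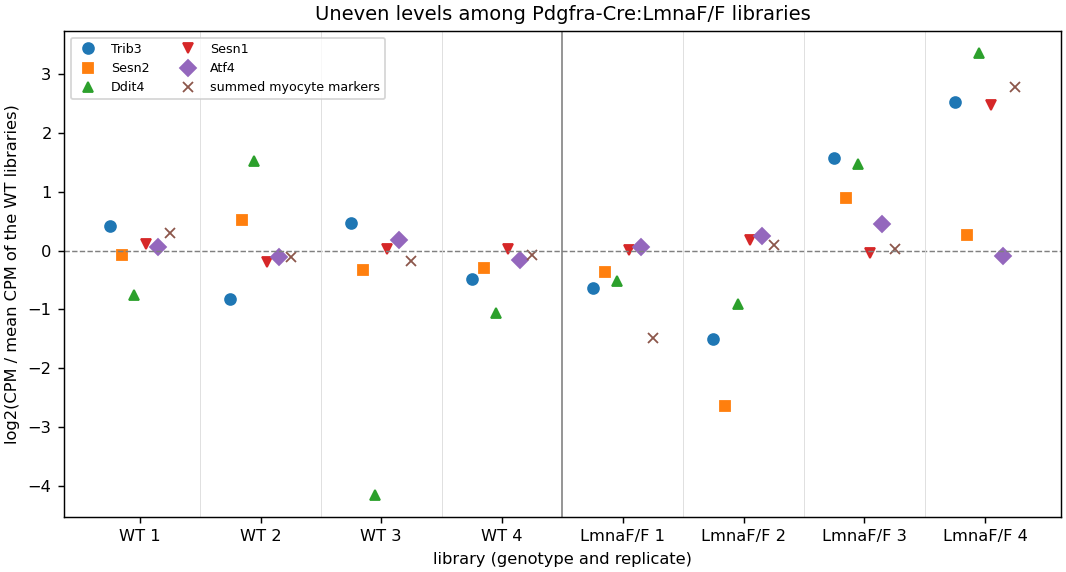
Log2 ratio of CPM to the mean CPM of the WT libraries (y axis) in each of the 8 libraries (x axis), for Trib3, Sesn2, Ddit4, Sesn1, Atf4 and the summed cardiac myocyte markers. Trib3, Ddit4, Sesn1 and the myocyte markers are all highest in Pdgfra-Cre:LmnaF/F replicate 4, where Atf4 is not raised. Ddit4 also spreads widely among the WT libraries.

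The other genes of these pathways were read from lists of genes of like function. The 9 kinases, phosphatase subunits and regulators of eIF2alpha had a median log2 fold change of 0.09, with 5 above 0 and 4 below. The sign of this median turned with the Y-linked covariate (−0.15), without WT replicate 2 (−0.03) and without Pdgfra-Cre:LmnaF/F replicate 1 (−0.06). None of the 9 was called by edgeR, DESeq2 or limma-voom. Ppp1r15a (GADD34), the stress-induced subunit that directs phosphatase to eIF2alpha and that ATF4 and CHOP induce, was at 79.8, 32.2, 78.8 and 83.3 CPM in WT and at 120, 119, 117 and 167 CPM in Pdgfra-Cre:LmnaF/F. The groups did not overlap (4.06% of all tested genes did so in this direction), and the log2 fold change was 0.92 (SE 0.27, unadjusted p = 0.00383, adjusted p = 0.175, edgeR). DESeq2 gave Ppp1r15a an adjusted p of 0.052, and DESeq2 with 1 RUVr factor, a covariate for unwanted variation, called it (adjusted p = 0.033). Eif2ak3 (PERK) was at 81.5 to 101 CPM in WT and at 73 to 78.1 CPM in Pdgfra-Cre:LmnaF/F, again without overlap (3.97% of all tested genes in this direction), but its log2 fold change of −0.24 had an adjusted p of 0.684. Ppp1r15b, the constitutive subunit, had a log2 fold change of 0.39 (adjusted p = 0.564).

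Of the 18 transcription factors and signalling genes that ATF4 is known to induce, 16 were tested, and Fgf21 and Pmaip1 did not pass the filter on low counts. Their median log2 fold change was 0.23, with 12 above 0 and 4 below. No gene was called by edgeR, 3 reached an unadjusted p under 0.05 upwards (6.24% of all tested genes) and 2 downwards (5.65%), and DESeq2 called 1 and limma-voom 0. Atf3, a stress-induced repressor, was at 5.7, 5.53, 9.43 and 14.3 CPM in WT and at 18.5, 35.4, 80.1 and 27.7 CPM in Pdgfra-Cre:LmnaF/F. All Pdgfra-Cre:LmnaF/F libraries lay above all WT libraries, and the log2 fold change of 2.18 (SE 0.46) had an adjusted p of 0.0649 by edgeR and 0.00117 by DESeq2. With edgeR, Atf3 passed the threshold without Pdgfra-Cre:LmnaF/F replicate 1 (adjusted p = 0.0399) and without replicate 4 (adjusted p = 0.0411). Vegfa, the endothelial growth factor, lay the other way without overlap, at 91.7 to 194 CPM in WT and 56.8 to 86.6 CPM in Pdgfra-Cre:LmnaF/F, with a log2 fold change of −0.84 (adjusted p = 0.166, edgeR). Vegfa was called by edgeR with no filter (adjusted p = 0.0492) and by DESeq2 with 1 RUVr factor (adjusted p = 0.00651). Atf5, a relative of ATF4 that is translated under the same control, had a log2 fold change of −0.82 (adjusted p = 0.209, edgeR).

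A list of immediate-early and heat shock genes that tissue dissociation is known to induce had a higher summed level in Pdgfra-Cre:LmnaF/F. The genes of the list that edgeR called were immediate-early or early stress genes. The largest differences in mean CPM were in immediate-early genes such as Fos (519 in WT, 1810 in Pdgfra-Cre:LmnaF/F) and Btg2 (308 and 1300). The heat shock gene Hspa1b had means of 18.8 and 52.2 CPM. Of 25 genes of the list tested, edgeR called 3 as higher in Pdgfra-Cre:LmnaF/F (0.169% of all tested genes), DESeq2 called 10 and limma-voom 8, and the median log2 fold change was 0.95, or 0.58 without Pdgfra-Cre:LmnaF/F replicate 4. Their summed level was 5550 ± 1310 CPM in WT and 11630 ± 2420 CPM in Pdgfra-Cre:LmnaF/F, higher in each of 4 libraries than in any WT library (p = 0.0286, exact two-sided permutation test, the smallest p that 4 against 4 allows). The 3 called genes were Ier3 (log2 fold change 1.88, adjusted p = 0.0221), Btg2 (2.08, adjusted p = 0.0315) and Nr4a1 (1.92, adjusted p = 0.0471), all by edgeR. Of the heat shock genes, edgeR called none and DESeq2 called Hspa1b (log2 fold change 1.47, adjusted p = 0.0202), and the log2 fold changes of the others ran from −0.52 for Hsph1 and −0.29 for Hspb1 through 0.18 for Hsp90aa1, 0.31 for Hspe1, 0.42 for Dnaja1 and 0.48 for Dnajb1 to 1.83 for Hspa1a. Each call was lost when single libraries were left out, that of Ier3 without WT replicate 1, WT replicate 4 or Pdgfra-Cre:LmnaF/F replicate 3, that of Btg2 also without Pdgfra-Cre:LmnaF/F replicate 2, and that of Nr4a1 without any library but Pdgfra-Cre:LmnaF/F replicate 4. Without Pdgfra-Cre:LmnaF/F replicate 3 the adjusted p was 0.0848 for Ier3, 0.108 for Btg2 and 0.166 for Nr4a1 by edgeR. Over the whole list, edgeR called 6 genes without WT replicate 3, 7 with 1 RUVr factor, 5 with the replicate block and 11 with no filter. It called 0 without WT replicate 1, WT replicate 4 or Pdgfra-Cre:LmnaF/F replicate 3. The call of Nr4a1 was also lost with all libraries kept, under upper-quartile factors and in edgeR with 1 RUVr factor (adjusted p = 0.0502 in both, against 0.0228 in DESeq2 with 1 RUVr factor), with the Y-linked covariate (0.0728) and after thinning (0.0632), as was that of Ier3 after thinning (0.0767). Atf3 and Nr4a1 were both highest in Pdgfra-Cre:LmnaF/F replicate 3, which also had the highest sum of the list, 15100 CPM. The part of this response in the levels of Atf3 and Ppp1r15a was not tested.

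The amino acid supply genes, which carry the metabolic arm of the ATF4 program, had mostly negative log2 fold changes, of which none passed the edgeR test on the filtered data. Of the 17 tested genes of amino acid synthesis and transport, 15 had a log2 fold change below 0 and 2 above, with a median of −0.52, whereas 6279 of 13036 tested genes were below 0 with a median of 0.02. Without Pdgfra-Cre:LmnaF/F replicate 4, the library with the high myocyte and leukocyte marker sums, 13 of 18 tested genes of the list lay below 0, with a median of −0.3 and 1 at an unadjusted p under 0.05 downwards, and the part of these cells in the levels was not tested. None was called by edgeR, DESeq2 or limma-voom in the filtered data, and 3 of the 17 reached an unadjusted edgeR p under 0.05, all downwards (11.9% of all tested genes in either direction, 5.65% downwards). Slc1a5, a glutamine transporter, was at 284, 236, 63 and 392 CPM in WT and at 138, 50.2, 70.5 and 142 CPM in Pdgfra-Cre:LmnaF/F (log2 fold change −1.28, adjusted p = 0.244, edgeR). Its WT replicate 3 lay among the Pdgfra-Cre:LmnaF/F libraries, and it was called by edgeR with no filter (adjusted p = 0.0125) and by DESeq2 with 1 RUVr factor (adjusted p = 0.00888). Mthfd2, a mitochondrial folate enzyme, had means of 20.3 ± 11 and 7.93 ± 6.46 CPM (log2 fold change −1.35, adjusted p = 0.401, edgeR), and Pycr1, which completes proline synthesis, had means of 29.3 ± 9.4 and 16.3 ± 9.15 CPM (log2 fold change −0.83, adjusted p = 0.419, edgeR). Asns lay in the same direction as this list. The 18 cytosolic tRNA synthetases, another ATF4-regulated class, stayed between −0.15 and 0.32, with a median of −0.07 and 0 at an unadjusted p under 0.05 or called by any of the 3 tools, and the lowest p among them was that of Dars (log2 fold change 0.23, adjusted p = 0.762, edgeR), followed by Qars (0.32) and Nars (0.19).

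**Figure D4:**
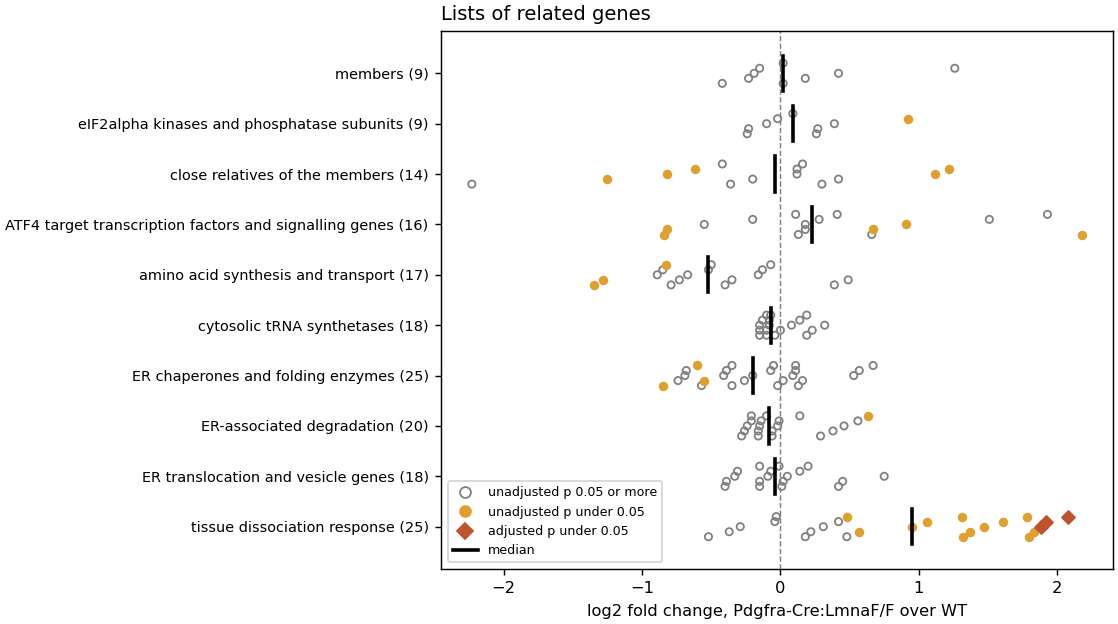
Log2 fold change of Pdgfra-Cre:LmnaF/F over WT (x axis) for each tested gene of the lists (rows, with the number tested), the black bar being the median of the list. Filled circles have an unadjusted edgeR p under 0.05 and diamonds an adjusted p under 0.05, which occur only in the tissue dissociation response, and most amino acid supply genes lie left of 0.

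In the ER folding machinery that ATF6 and XBP1 maintain, no gene was called as higher in Pdgfra-Cre:LmnaF/F. Of 25 chaperones and folding enzymes, 16 had a log2 fold change below 0 and 9 above, with a median of −0.2, edgeR and limma-voom called 0 and DESeq2 called 1. An unadjusted edgeR p under 0.05 was reached by 3 of the 25, all downwards (11.9% of all tested genes in either direction, 5.65% downwards). Pdgfra-Cre:LmnaF/F replicate 4 was the library with the high myocyte and leukocyte marker sums. Without it, 14 of the 25 lay below 0 with a median of −0.02, and 1 reached an unadjusted p under 0.05. With the Y-linked covariate, 20 of the 25 lay below 0 with a median of −0.44. In that fit 9 reached an unadjusted edgeR p under 0.05 downwards, against 861 of 13036 tested genes. Without Pdgfra-Cre:LmnaF/F replicate 2, 19 lay below 0 with a median of −0.33. There 8 reached an unadjusted edgeR p under 0.05 downwards, against 738 of 13559 tested genes. Pdia4, a disulfide isomerase, was at 221, 327, 331 and 240 CPM in WT and at 192, 158, 153 and 118 CPM in Pdgfra-Cre:LmnaF/F, without overlap, and its log2 fold change of −0.85 had an adjusted p of 0.121 by edgeR and 0.0114 by DESeq2. EdgeR called Pdia4 with no filter (adjusted p = 0.0321) and with the Y-linked covariate (adjusted p = 0.0333). Pdia3 (−0.55, adjusted p = 0.341) and the lectin chaperone Calr (−0.6, adjusted p = 0.364) were the next by p. Calr was at 1050 to 1520 CPM in WT and at 515 to 1140 CPM in Pdgfra-Cre:LmnaF/F, with the lowest value in replicate 4. Hspa5 (BiP), the chaperone most used to detect ER stress and named here outside the rule for named genes, was at 576, 878, 1570 and 508 CPM in WT and at 810, 1080, 711 and 341 CPM in Pdgfra-Cre:LmnaF/F (log2 fold change −0.26, adjusted p = 0.856, edgeR).

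Of the 20 genes of ER-associated degradation, 14 lay below 0 and 6 above, with a median of −0.08, and 0 were called by any of the 3 tools. Selenos, a selenoprotein of the retrotranslocation complex, was the 1 gene at an unadjusted p under 0.05, at 38.3 to 62.6 CPM in WT and 62.7 to 88.2 CPM in Pdgfra-Cre:LmnaF/F (log2 fold change 0.63, adjusted p = 0.284, edgeR). Ngly1, which removes N-glycans from exported proteins, and Ufd1, a cofactor of the extracting ATPase, had log2 fold changes of 0.56 and 0.38 (adjusted p = 0.533 and 0.568). The 18 genes of ER translocation and vesicle transport had a median of −0.04, with 0 at an unadjusted p under 0.05 and 0 called, and the lowest p values among them were those of Ssr2 (−0.39), Sec31a (−0.4) and Sec61g (0.45).

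Of 16 close relatives of the set, 14 were tested and 7 lay in each direction, with a median of −0.04. An unadjusted edgeR p under 0.05 was reached by 5 of the 14 (11.9% of all tested genes), 2 upwards (Trib1 and Sesn1) and 3 downwards (Creb3l1, Creb3l2 and Atf5). None was called by edgeR, and DESeq2 and limma-voom each called 1, Creb3l1. Creb3l1 (OASIS), an ER-anchored transcription factor of the same design as ATF6 that promotes collagen secretion, was at 76, 77, 34.7 and 61.8 CPM in WT and at 25.5, 29.5, 38.2 and 11.2 CPM in Pdgfra-Cre:LmnaF/F. WT replicate 3 lay below the highest Pdgfra-Cre:LmnaF/F library, and the log2 fold change of −1.25 (SE 0.35) had an adjusted p of 0.159 by edgeR, 0.0416 by DESeq2 and 0.0379 by limma-voom. Trib1, a paralog of Trib3, was at 10.1 to 14.6 CPM in WT and at 17.7 to 42.7 CPM in Pdgfra-Cre:LmnaF/F, without overlap (log2 fold change 1.22, adjusted p = 0.171, edgeR), and DESeq2 with 1 RUVr factor called it (adjusted p = 0.0484). Unlike Trib3, it was more abundant in every Pdgfra-Cre:LmnaF/F library than in any WT library.

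The genes whose log2 CPM most resembled those of the regulators over the 8 libraries are given as a description, since the libraries share a normalization and WT replicate 2 is shallow. For Atf4 they were Zfp157 (Pearson r = 0.986), Pxdc1 (0.952) and Wdr75 (0.952), for Atf6 they were Gstt1 (0.968), Tpd52l2 (0.967) and Tlr3 (0.959), and for Xbp1 they were Mrpl12 (0.983), Slc37a3 (0.966) and Adcy3 (0.957). With 13036 genes compared over 8 libraries, 25 genes outside the lists exceeded an r of 0.9 with Atf4, 27 with Atf6 and 36 with Xbp1. None of the 9 named genes was called between the genotypes by edgeR, the lowest adjusted p being that of Gstt1 (0.399).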

How the data were processed

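The authors prepared strand-specific, ribosomal RNA-depleted libraries from RNA with a RIN above 8, sequenced 150 bp paired-end reads, aligned them to mm10 with HISAT2 and counted them per GENCODE gene with featureCounts. They deposited whole-number counts per gene symbol, 1 library per mouse, without scaling. The GENCODE release and the strand setting of the counting are not given in the sources used here. The authors used RUV and DESeq2 for their comparison, which are alternatives here.

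The counts were fitted in R 4.3.3 with the quasi-likelihood test of edgeR 4.0.16 (TMM factors, filterByExpr, genotype as the only term, Benjamini-Hochberg adjustment over 13036 tested genes, threshold 0.05). DESeq2 1.42.0 and voom of limma 3.58.1 were alternatives, as were other scalings, filters, 1 RUVr factor, a Y-linked covariate, thinning, the replicate block and leaving out libraries. Log2 CPM used a prior count of 2. Single values were compared with exact permutation tests over 70 assignments. Lengths came from GENCODE M21. The procedure was tested on simulated data. Depth limits genes of few reads, and these limits cover counting error only. The edgeR p-values set the difference between genotypes against the spread between libraries.

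The genes and lists were chosen with earlier results of these data known. Named genes are the set, Lmna, of each list the 3 tested genes with the lowest p and all called genes, and the 3 genes outside the lists most correlated with Atf4, Atf6 and Xbp1. Summed markers of other cell types were checked as well.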

Additional observations from a re-analysis of the deposited data

Results flagged for a closer look

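The values named here lay apart from the other 3 libraries of their group, by Dixon's test at the 0.05 level. Of 118 groups of 4 libraries tested, 12 were flagged, and chance flags about 1 in 20. Ppp1r15a was flagged in both genotypes. It was at 32.2 CPM in WT replicate 2, against 78.8 to 83.3 in the other WT libraries, and at 167 CPM in Pdgfra-Cre:LmnaF/F replicate 4, against 117 to 120 in the other 3. Sesn1 was at 362 CPM in Pdgfra-Cre:LmnaF/F replicate 4, against 63.1 to 73.2 in the other 3. None of the 9 genes of the set was flagged.

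Pdgfra-Cre:LmnaF/F replicate 3 stood apart for Ier3, at 86.2 CPM against 47.3 to 51.5, and for Nr4a1, at 1310 CPM against 467 to 589. Pdgfra-Cre:LmnaF/F replicate 4 stood apart in its Y-linked genes, with Kdm5d at 37.2, Uty at 50.8 and Eif2s3y at 57.5 CPM, all near 0 in the other 3 libraries. Its summed markers of cardiac myocytes were 5680 CPM against 296 to 886, and those of leukocytes were 429 CPM against 44.7 to 92.8. The cardiac myocyte sum of WT replicate 1 was 1020 CPM against 734 to 782 in the other WT libraries, and the adipocyte sum of Pdgfra-Cre:LmnaF/F replicate 2 was 11.2 CPM against 0.115 to 1.92.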

How the results depend on the processing

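No gene of the set was called in any alternative. The number of all genes called was 53 in the main analysis, 295 with DESeq2, 126 with limma-voom, 274 with no filter, 81 with edgeR and 1 RUVr factor, 439 with DESeq2 and 1 RUVr factor, 119 with the Y-linked covariate, 34 after thinning to the shallowest library, and between 13 and 76 when libraries were left out in turn. The lowest counts were 13 without WT replicate 4 and 17 without Pdgfra-Cre:LmnaF/F replicate 3, and counts of 24, 24 and 26 were left without WT replicate 1, WT replicate 2 and Pdgfra-Cre:LmnaF/F replicate 2. When libraries were left out in turn, between 0 and 1 genes of the set did not overlap between the groups. These were Atf6 without WT replicate 2 and Ddit3 without WT replicate 3. The share of all tested genes without overlap was not counted for 4 against 3 libraries, so nothing is concluded from these counts. The summed dissociation response was higher in Pdgfra-Cre:LmnaF/F by 6081 CPM, and by 4901 to 6713 CPM when libraries were left out in turn. Its exact permutation p was 0.0286 each time, the smallest that 4 against 4 or 4 against 3 libraries allow, and so says nothing of stability.

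The list medians without single libraries were also added after seeing the data. For amino acid supply genes they ran from −0.58 to −0.3 and for chaperones from −0.33 to −0.02. The bound nearest to 0 was without Pdgfra-Cre:LmnaF/F replicate 4 in both. With all libraries kept and the Y-linked covariate, the medians were −0.54 for amino acid supply genes and −0.44 for chaperones.

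Deviations of same-numbered libraries from the group means correlated between −0.0298 and 0.0396, so the replicate numbers do not pair them. The fit with the replicate block called 36 genes and 0 of the set.

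Calls were gained by 8 named genes outside the set with all libraries kept. DESeq2 with 1 RUVr factor gave adjusted p = 0.033 for Ppp1r15a, 0.0484 for Trib1, 0.0325 for Creb3l1, 0.00115 for Atf3, 0.00651 for Vegfa, 0.00888 for Slc1a5 and 0.00658 for Pdia4. EdgeR with no filter gave 0.0153 for Creb3l1, 0.000747 for Atf3, 0.0492 for Vegfa, 0.0125 for Slc1a5 and 0.0321 for Pdia4, and with at least 10 counts in every library 0.0486 for Atf3. The Y-linked covariate gave 0.0333 for Pdia4 and 0.0423 for Ddit4. Nr4a1 lost its call in 4 such settings and Ier3 in 1, all with the same sign.

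Signs turned as follows, all without a call. For Sesn2 the log2 fold change was −0.25 with limma-voom, −0.12 with either RUVr fit, −0.65 after thinning, −0.25 with the replicate block, and from −0.46 to 0.37 when libraries were left out. For Herpud1 it was −0.04 with limma-voom, 0 with no filter and from −0.08 to 0.15 when libraries were left out. For Asns it reached 0 without WT replicate 3, within −0.63 to 0. Without single libraries Xbp1 ranged from −0.29, Qars from −0.03 to 0.5, Mrpl12 from −0.78, Adcy3 from −0.45 to 0, Slc37a3 from −0.29 to 0.14 and Sesn1 up to 1.37. Slc37a3 gave 0.06 with either RUVr fit, 0.01 with the Y-linked covariate, and 0.05, 0.07, 0.13 and 0.14 without single libraries. The Y-linked covariate turned Pxdc1 to −0.03 and Uty to 0.18, and thinning brought Dars to 0. Without WT replicate 2 and Pdgfra-Cre:LmnaF/F replicate 4 together, an alternative chosen after seeing the data, 37 genes were called, and Xbp1 gave 0.04, Qars −0.24, Mrpl12 0.16, Slc37a3 0.24, Adcy3 0.04 and Sesn1 −0.01. The cause of these changes was not tested. Depth limits Trib3, which 6 reads represent in WT replicate 2.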

Other observations

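No other marker sum differed between the genotypes past the threshold. By the exact two-sided permutation test over 4 against 4 libraries, fibroblast markers gave p = 0.457, cardiac myocyte markers p = 0.743, endothelial markers p = 0.771 and leukocyte markers p = 0.857. Mural cell markers gave p = 0.886, Schwann cell markers p = 1, epicardial markers p = 0.0857, adipocyte markers p = 0.8 and Y-linked genes p = 0.457, all by the same exact permutation test and unadjusted over 9 sums. The epicardial sum was 22.88 ± 12.4 CPM in WT and 10.56 ± 3.86 CPM in Pdgfra-Cre:LmnaF/F.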
